A study of Mus musculus with 15 samples.

Results

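The genes described here encode core parts of the Polycomb repressive complexes: Ezh1, Ezh2, Eed and Suz12 of the PRC2 core, the PRC2 accessory factors Jarid2, Mtf2 and Phf19, and Cbx7, Ring1 and Rnf2 of PRC1. They were found by matching the RefSeq accession of every non-control probe to its gene symbol. All 10 genes were measured, by 13 probes, among 14443 genes that passed the filter on dim probes, so none was lost to that filter.

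Polycomb complexes keep developmental genes silent by marking histones. PRC2 methylates histone H3 at lysine 27 through Ezh2 or its paralog Ezh1, and needs Eed and Suz12 to be active, while PRC1 binds that mark through Cbx proteins and adds ubiquitin to histone H2A through Ring1 or Rnf2. Embryonic stem cells without PRC2 still self-renew but differentiate poorly, and many lineage regulators carry the mark in these cells.

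Total RNA of mouse embryonic stem cells was labelled with Cy3 and hybridised to 15 single-colour Agilent arrays, 3 in each of 5 groups. Wild-type cells were set beside Nat1-null cells, which lack a translation initiation factor now named Eif4g2. The other groups were Nat1-null cells as well: cells carrying a tet-Map3k3 transgene cultured without or with doxycycline (Dox), which switches such transgenes on, and cells carrying tet-EGFP cultured with Dox as a control for the drug and the transgene. Map3k3 is a kinase that acts upstream of MAP kinases. No Dox dose or time is given in the labels, nor whether a line is 1 clone, whether the null line came from these wild-type cells, or whether the 3 samples of a group were separate cultures. P-values therefore measure only the spread between these samples, which may be technical. All cells grew on gelatin-coated plates.

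Signals were put on a log2 scale with the 75th percentile of each array set to 0, and signals of different probes are not compared. Eif4g2 was 4.31 ± 0.15 (SD, n = 3) in wild-type and 1.71 ± 0.19 in null cells, and 1.56 to 1.62 on average in the other groups. The Map3k3 probe lay near the same level in all groups. With Dox, Map3k3 cells differed by 0.18 from uninduced cells (limma adjusted p = 0.236) and by 0.27 from EGFP cells (limma adjusted p = 0.0873). The probe thus does not show induction of the transgene, and whether it can detect the transgene is not known. The 75th percentile was 494 to 614 signal units, and the share of probes well above background was 42.7% to 53.9%. The second array of the Map3k3 cells with Dox had the lowest share and the highest floor (12.7 units against 4.33 on the lowest array). Of 8 stem cell markers examined, Pou5f1, Sox2 and Nanog among them, none was dim on all arrays of a group.

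Calls needed a limma p-value under 0.05 after Benjamini-Hochberg adjustment over all genes, together with a difference of 1.5-fold or more. Only such genes are said to have risen or fallen. Every member's main probe was well above background on all 15 arrays.

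**Figure D1:**
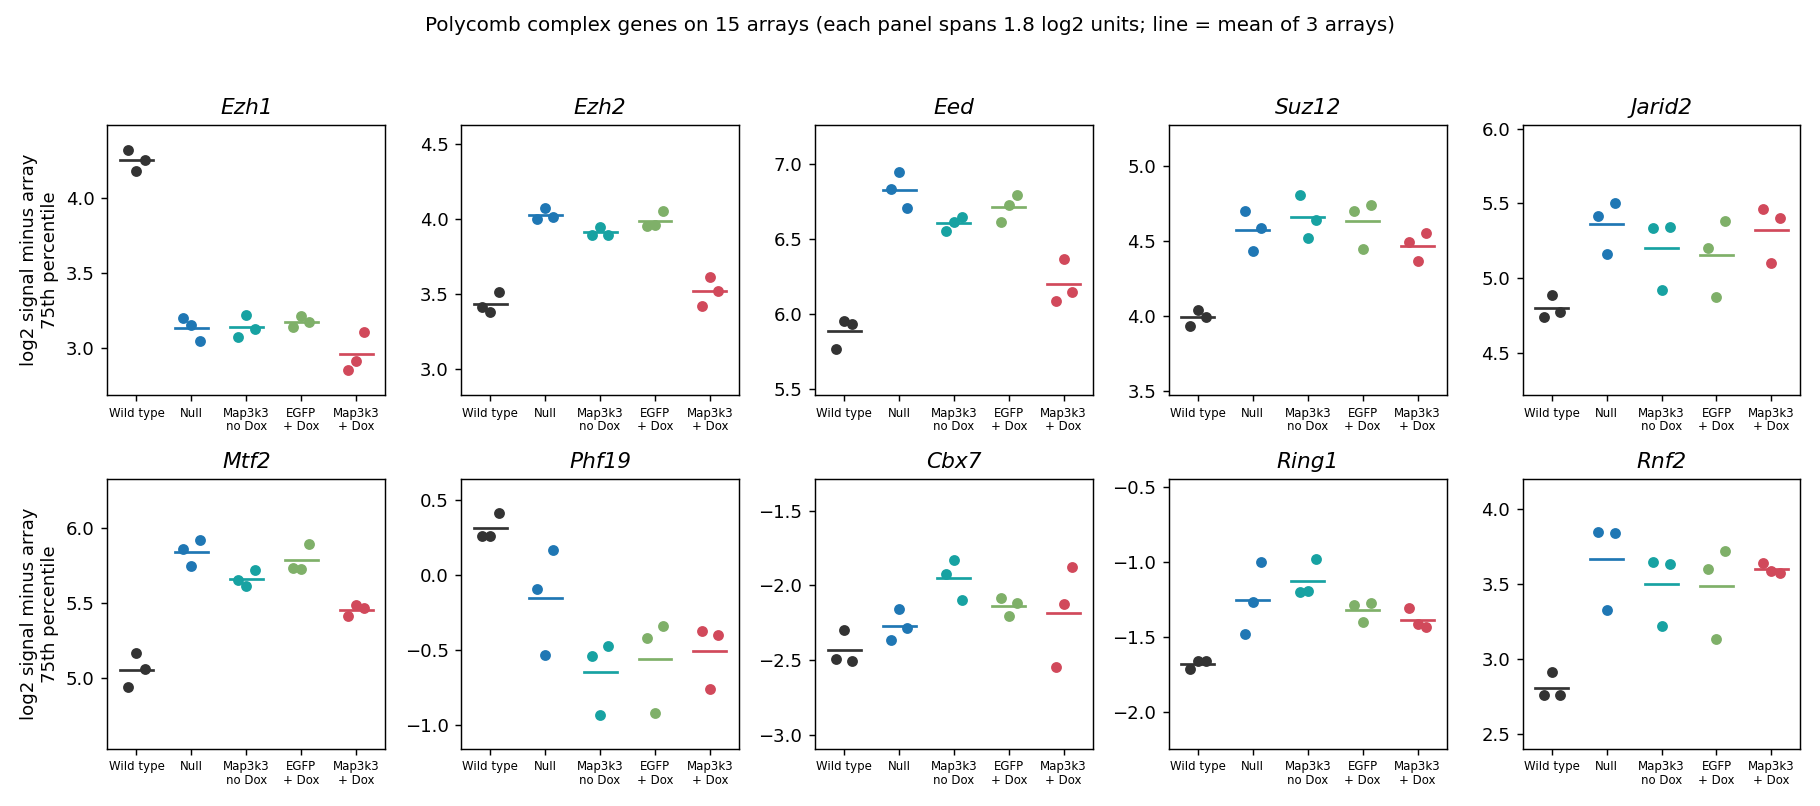
Signal of the 10 Polycomb genes on each array (points) by group, with the mean of 3 arrays (lines); the vertical axis is log2 signal minus the array's 75th percentile, and each panel spans 1.8 log2 units. Wild-type Ezh1 (4.18 to 4.32) lies above every null array (at most 3.22), and Ezh2 of the Map3k3 cells with Dox (3.42 to 3.61) overlaps wild type.

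The first question was how these genes differed between Nat1-null and wild-type cells. In null cells 4 of the 10 rose, namely Ezh2, Eed, Mtf2 and Rnf2, and Ezh1 fell. The background is wide: 37.8% of all genes were called in this comparison, 17.3% higher and 20.5% lower. The median log2 difference of the 10 genes was 0.57, against 0.07 over all genes. With only probes above background on all 15 arrays, as the members' main probes are, the median of all genes was 0.14. Of the calls made there 58.7% were higher, against 45.8% in the main fit. For 9 of the 10, all but Cbx7, null and wild-type arrays did not overlap, as for 71.9% of all genes.

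The alternative catalytic subunits of PRC2 went in opposite directions. Ezh1, the one more often associated with non-dividing cells, read 4.32, 4.18 and 4.26 on the wild-type arrays, 3.20, 3.15 and 3.05 on the null arrays, 3.07, 3.22 and 3.13 in Map3k3 cells without Dox, 2.86, 2.92 and 3.11 with Dox, and 3.14, 3.21 and 3.17 in EGFP cells. Wild type stood above all 12 other arrays with no overlap. Ezh1 fell 2.17-fold in null cells (log2 difference -1.12 ± 0.08, SE; limma adjusted p = 1.34e-07). A second Ezh1 probe fell by 1.12 too. Another, dimmer one was well above background on all 3 wild-type arrays and on none of the 3 arrays of the null group. It passed the filter only through wild type and so had to differ, and it adds no support.

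Ezh2, the main H3K27 methyltransferase of dividing cells, read 3.41, 3.38 and 3.51 in wild type, 4.00, 4.07 and 4.02 in null cells, 3.89, 3.95 and 3.89 in Map3k3 cells without Dox, 3.42, 3.61 and 3.52 with Dox, and 3.95, 3.96 and 4.06 in EGFP cells. The null, uninduced and EGFP arrays were all higher than wild type and than the Map3k3 arrays with Dox, and the last overlapped wild type. Ezh2 rose 1.51-fold in null cells (0.59 ± 0.06; limma adjusted p = 5.86e-06). The rise sits at the fold minimum: without wild-type replicate 1, wild-type replicate 2 or null replicate 2 it was 0.58, 0.57 and 0.57 and missed it.

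Eed, which binds the methylated histone and stimulates the enzyme, read 5.77, 5.95 and 5.93 in wild type, 6.83, 6.95 and 6.70 in null cells, 6.55, 6.61 and 6.65 in Map3k3 cells without Dox, 6.08, 6.36 and 6.15 with Dox, and 6.61, 6.73 and 6.79 in EGFP cells. Arrays of the Map3k3 cells with Dox lay between wild type and the other null groups and overlapped neither. Eed rose 1.92-fold in null cells (0.94 ± 0.09; limma adjusted p = 2.31e-06).

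Suz12, the scaffold of the PRC2 core, read 3.94, 4.04 and 3.99 in wild type, 4.70, 4.43 and 4.59 in null cells, 4.81, 4.52 and 4.64 in Map3k3 cells without Dox, 4.49, 4.36 and 4.55 with Dox, and 4.70, 4.45 and 4.74 in EGFP cells. All 12 null-background arrays were above wild type and overlapped among themselves. The difference between null and wild type was 0.58 ± 0.10, or 1.498-fold (limma adjusted p = 0.000314), just under the fold minimum. Suz12 would have been called without wild-type replicate 2 (0.61) or null replicate 2 (0.65).

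Among the accessory factors, Mtf2, which helps to bring PRC2 to unmethylated CpG-rich DNA, read 4.94, 5.17 and 5.06 in wild type, 5.86, 5.75 and 5.92 in null cells, 5.66, 5.61 and 5.72 in Map3k3 cells without Dox, 5.41, 5.48 and 5.47 with Dox, and 5.73, 5.73 and 5.89 in EGFP cells. Wild type was lowest, Map3k3 with Dox next, and neither overlapped another group. Mtf2 rose 1.72-fold in null cells (0.79 ± 0.07; limma adjusted p = 2.28e-06), and a dimmer second probe rose by 0.82.

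Jarid2, which recruits PRC2 and modulates its activity, read 4.74, 4.89 and 4.78 in wild type, 5.41, 5.17 and 5.50 in null cells, 5.34, 4.92 and 5.34 in Map3k3 cells without Dox, 5.46, 5.10 and 5.40 with Dox, and 5.21, 4.88 and 5.38 in EGFP cells. EGFP replicate 2 overlapped wild type and the other null-background arrays did not. The difference between null and wild type was 0.56 ± 0.15, or 1.47-fold (limma adjusted p = 0.00741), under the fold minimum. Without wild-type replicate 2 (0.60) or null replicate 2 (0.66) it passed.

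Phf19, a reader of methylated H3K36 that can also bring in PRC2, read 0.26, 0.26 and 0.42 in wild type, -0.09, -0.53 and 0.16 in null cells, -0.54, -0.94 and -0.48 in Map3k3 cells without Dox, -0.37, -0.76 and -0.40 with Dox, and -0.42, -0.92 and -0.34 in EGFP cells. Wild type was above all other arrays, and null cells spread the widest. The difference of -0.46 ± 0.20 between null and wild type did not pass (limma adjusted p = 0.0605), passed without null replicate 3 (-0.62), and was -0.27 without null replicate 2 (limma adjusted p = 0.244) and -0.19 with the slide row as a block (limma adjusted p = 0.601).

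Of the PRC1 genes, Rnf2, the main H2A ubiquitin ligase in embryonic stem cells, read 2.76, 2.92 and 2.76 in wild type, 3.85, 3.33 and 3.84 in null cells, 3.65, 3.22 and 3.64 in Map3k3 cells without Dox, 3.64, 3.59 and 3.58 with Dox, and 3.60, 3.14 and 3.72 in EGFP cells. All null-background arrays were above wild type, and the second array was the low one in the null, uninduced and EGFP groups. Rnf2 rose 1.82-fold in null cells (0.86 ± 0.17; limma adjusted p = 9.74e-04).

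Ring1, its paralog, read -1.71, -1.66 and -1.66 in wild type, -1.48, -1.27 and -1.003 in null cells, -1.20, -1.19 and -0.98 in Map3k3 cells without Dox, -1.31, -1.42 and -1.43 with Dox, and -1.28, -1.40 and -1.27 in EGFP cells. It was lowest in wild type, with no overlap. The difference between null and wild type was 0.43 ± 0.11, or 1.34-fold (limma adjusted p = 0.0038), under the fold minimum.

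Cbx7, the chromodomain protein of PRC1 in self-renewing embryonic stem cells, read -2.49, -2.30 and -2.50 in wild type, -2.36, -2.16 and -2.29 in null cells, -1.92, -1.83 and -2.09 in Map3k3 cells without Dox, -2.54, -2.12 and -1.88 with Dox, and -2.09, -2.20 and -2.12 in EGFP cells. Null and wild-type arrays overlapped, and the difference of 0.16 ± 0.14 did not pass (limma adjusted p = 0.334). The sign of that difference turned with the slide row as a block (-0.10).

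The wild-type and null arrays lay on 1 slide in different rows, so row and genotype cannot be told apart in this comparison alone. With the row as a block in the fit of all groups, Suz12 and Jarid2 were called and Ezh2, at 0.57, was not. Markers of other cells moved with the genotype. The summed linear signal of 8 fibroblast or feeder markers, in units of the 75th percentile, was 96.02 to 102 in wild type and 6.74 to 7.17 in null cells, with 2 of the 8 dim on every null array and none in wild type. For 7 trophectoderm markers it was 185 to 190 and 11.9 to 26.7, with 1 dim on every null array, and for the 8 stem cell markers 687 to 736 and 1180 to 1241. For 8 primitive endoderm markers it was 15.2 to 17.5 and 44.2 to 71.0, with 1 and 4 dim on every array. That sum mostly follows Lama1, the brightest of them (mean log2 signal 3.98 in wild type and 5.75 in null cells). The median log2 difference of the 8 was -0.52, with 2 called higher and 3 lower. The trophectoderm sum mostly follows Krt18 (7.30 in wild type and 3.40 in null cells). Tagln (6.05 and 1.60) was the brightest part of the fibroblast or feeder sum. All 7 trophectoderm and 6 of the 8 fibroblast or feeder markers were called lower, against 20.5% of all genes. For 16 proliferation genes the summed signal was 891 to 959 and 1168 to 1340, with a median difference of 0.47. Of the 16, 11 were higher at an adjusted p under 0.05. At that threshold 9109 of 14443 genes passed, 55.2% of them higher. The part of these markers and proliferation genes in the Polycomb differences was not tested. In bulk samples, fewer cells of a type and less RNA per cell cannot be told apart.

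The other null-background lines were compared with the same 3 wild-type arrays, so the values are given side by side and are not independent. In Map3k3 cells without Dox 6 of the 10 genes were called, against 39.9% of all genes. Eed, Suz12, Mtf2 and Rnf2 were higher (17.8% of all genes were) and Ezh1 and Phf19 lower (22.1%). In EGFP cells 6 of 10 were called, against 39.2% of all genes. Eed, Suz12, Mtf2 and Rnf2 were higher (17.3% of all genes were) and Ezh1 and Phf19 lower (21.9%).

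Ezh1 was lower by 2.16-fold in uninduced and 2.11-fold in EGFP cells. Eed was 1.65-fold and 1.77-fold higher, and Suz12 1.59-fold and 1.56-fold. Ezh2 missed the fold minimum in both, at 1.39-fold and 1.47-fold (limma adjusted p = 3.29e-05 and 9.61e-06). Without wild-type replicate 3 it passed in EGFP cells (0.59).

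Mtf2 was 1.52-fold and 1.66-fold higher, and lost its call in uninduced cells without wild-type replicate 1 (0.55) or uninduced replicate 3 (0.58). Rnf2 was 1.61-fold and 1.60-fold higher, and lost its call in EGFP cells without EGFP replicate 3 (0.56). Ring1 in uninduced cells was under the fold minimum at 1.47-fold and passed without uninduced replicate 1 or 2 (0.59 each).

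Phf19 was 1.95-fold and 1.83-fold lower, but with the slide as a block its differences were -0.63 (limma adjusted p = 0.19) and -0.65 (limma adjusted p = 0.075). The uninduced arrays were on another slide than wild type. Only EGFP replicate 3 shared both slide and row with the wild-type arrays. Set against them alone, it gave -1.08 for Ezh1, 0.62 for Ezh2, 0.91 for Eed, 0.75 for Suz12, 0.84 for Mtf2, 0.91 for Rnf2 and -0.65 for Phf19, with 1 array on that side and no test.

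**Figure D2:**
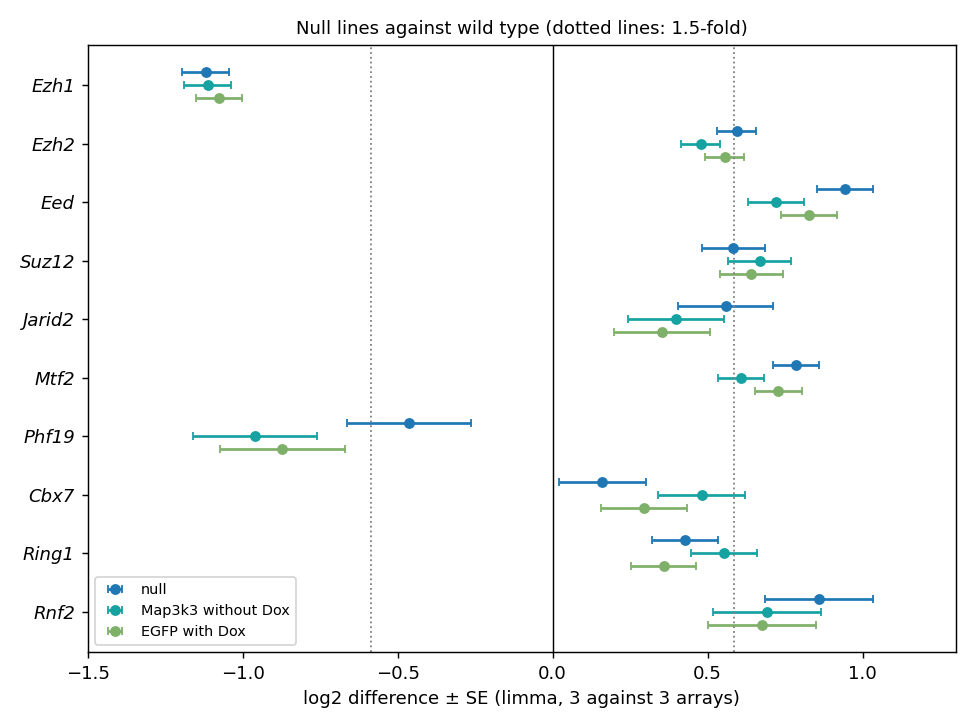
Log2 difference ± SE of each Polycomb gene in null, uninduced Map3k3 and EGFP cells against the same 3 wild-type arrays; dotted lines mark 1.5-fold. Ezh1 (-1.12, -1.11 and -1.08) and Phf19 lie to the left of 0, and the other 8 genes to the right.

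Set against null cells, no Polycomb gene was called in either line. In Map3k3 cells without Dox against null cells 0 of 10 were called, with 0% of all genes called, and 4 members had an unadjusted limma p under 0.05, as did 14.6% of all genes. In EGFP cells against null cells 0 of 10 were called and none had an unadjusted limma p under 0.05, as did 7.27% of all genes, with 0.00692% of all genes called. Same-numbered arrays of these groups deviated together, and within each number Phf19 was lower in uninduced than in null cells (-0.45, -0.40 and -0.64) and in EGFP than in null cells (-0.33, -0.39 and -0.50). With the replicate number as a block over the null-background arrays, Phf19 in uninduced cells had a limma adjusted p of 0.0295 at -0.50 ± 0.07, under the fold minimum, and in EGFP cells 0.083 at -0.41 ± 0.07. Jarid2, Rnf2 and Mtf2 were also lower in each of these pairs, by 0.08 to 0.29, 0.10 to 0.24 and 0.02 to 0.20. Suz12 was higher in each, by 0.004 to 0.16. In that order, none passed with the block (limma adjusted p = 0.169, 0.384, 0.124 and 0.424 in uninduced, 0.214, 0.498, 0.676 and 0.695 in EGFP cells).

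The promoters of these genes, as RefSeq windows of 250 bases before to 50 after the start on GRCm38.p6, were searched on both strands, since Ezh2 and Eed rose in null cells while Ezh1 fell. All 10 genes matched a window, Jarid2 and Mtf2 more than 1. E2F-type letters (TTTGGCGC, TTTCCCGC, TTTCGCGC or TTTGCCGC) were present for 3 of the 10, Ezh2, Suz12 and Phf19, against 2.27% of 32851 windows. CCAAT was present for 6 of 10, against 37.4% of windows. The AP-1 letters TGANTCA and the CRE letters TGACGTCA were in none, against 7.81% and 1.79% of windows. The windows of Ezh2, Suz12 and Phf19 hold 31, 41 and 38 CpG, against a median of 7 over all windows. The members were not compared with windows alike in CpG. A gene counted if any of its windows matched, whereas the shares are per window. Such matches describe the letters in a window and are no evidence of binding. The stretches below run 5′ to 3′ on the gene's strand, with E2F-type and CCAAT letters in capitals. Ezh1 (chr11:101226464-101226713, minus strand) fell and holds neither. Eed (chr7:89980977-89981226, minus strand), the member that rose most in null cells, holds neither in this stretch, but has a CCAAT at position 26 after the start, beyond what is printed. Suz12 (chr11:79992856-79993105, plus strand) holds both, and the 30 bases around the Ezh2 match are at chr6:47595009-47595038 on the minus strand.
Ezh1: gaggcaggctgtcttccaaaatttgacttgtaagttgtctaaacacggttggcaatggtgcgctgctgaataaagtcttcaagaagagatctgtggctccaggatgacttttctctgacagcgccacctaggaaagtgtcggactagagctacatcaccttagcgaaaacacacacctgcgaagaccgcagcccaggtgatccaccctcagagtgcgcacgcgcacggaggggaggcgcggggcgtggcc
Eed: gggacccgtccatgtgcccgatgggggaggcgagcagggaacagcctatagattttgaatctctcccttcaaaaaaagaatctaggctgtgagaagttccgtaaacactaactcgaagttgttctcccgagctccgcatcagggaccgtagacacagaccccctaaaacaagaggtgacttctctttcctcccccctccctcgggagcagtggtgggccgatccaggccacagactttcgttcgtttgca
Suz12: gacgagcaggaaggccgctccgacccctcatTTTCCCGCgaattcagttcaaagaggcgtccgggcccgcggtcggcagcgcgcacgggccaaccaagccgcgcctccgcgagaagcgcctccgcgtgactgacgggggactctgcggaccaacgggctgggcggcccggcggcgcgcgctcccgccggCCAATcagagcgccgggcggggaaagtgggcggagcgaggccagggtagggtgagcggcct
Ezh2: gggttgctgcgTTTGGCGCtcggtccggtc

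The second question was what Map3k3 did in null cells. None of the 10 genes was called in Map3k3 cells with Dox against the same line without it, with 17.9% of all genes called, and none against EGFP cells with Dox, with 18.1% called. The unadjusted limma p was under 0.05 for 5 and 4 members, and for 48.7% and 49.4% of all genes. Without the fold minimum, 3 and 4 members passed, all lower with Map3k3, against 21.8% and 23.5% of all genes that were lower at that threshold. Both comparisons share the Map3k3 arrays with Dox. The median difference of the 10 genes was -0.20 and -0.11, against -0.07 and -0.09 over all genes.

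Ezh2 had the smallest adjusted p. Its signal was lower with Map3k3 by 0.39 ± 0.06 against uninduced cells (limma adjusted p = 4.53e-04) and by 0.47 ± 0.06 against EGFP cells (limma adjusted p = 1.11e-04), which is 1.31-fold and 1.39-fold. Against wild type it differed by 0.08 ± 0.06 (limma adjusted p = 0.272).

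Eed was lower by 0.41 ± 0.09 (limma adjusted p = 0.00376) and 0.51 ± 0.09 (limma adjusted p = 8.04e-04). It was called against EGFP cells once Map3k3 replicate 2 with Dox, the array that stood apart, was left out (-0.59). Mtf2 differed by -0.21 ± 0.07 (limma adjusted p = 0.0441) and -0.33 ± 0.07 (limma adjusted p = 0.00416). Its dimmer probe gave 0.14 against EGFP cells, so the probes disagree. The first of these Mtf2 differences missed the threshold whichever of the 6 arrays was left out (limma adjusted p = 0.0542 to 0.13) and with the slide row as a block (limma adjusted p = 0.19).

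Ezh1 signal lay farther from wild type with Map3k3. It was 0.18 ± 0.08 lower than in uninduced cells (limma adjusted p = 0.0766) and 0.22 ± 0.08 lower than in EGFP cells (limma adjusted p = 0.037), and the second of these had a limma adjusted p of 0.00977 to 0.138 with 1 array left out and 0.075 with the slide as a block.

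Suz12 differed by -0.19 and -0.16, Ring1 by -0.26 and -0.07, and Cbx7 by -0.23 and -0.05. Jarid2 differed by 0.12 and 0.17, Phf19 by 0.14 and 0.05, and Rnf2 by 0.10 and 0.11. None of these 6 genes passed at an adjusted p of 0.05.

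Within the slide and row that they shared, Map3k3 replicate 1 with Dox against the 3 uninduced arrays gave -0.49 for Ezh2 and -0.52 for Eed. Replicates 2 and 3 against EGFP replicates 1 and 2 gave -0.39 for Ezh2, -0.41 for Eed and -0.25 for Mtf2. All these values have the sign of the pooled ones. The 16 proliferation genes listed for comparison had a median difference of -0.31 and -0.32. Of these, 10 and 11 were lower at an adjusted p under 0.05, against 21.8% and 23.5% of all genes. The stem cell marker sum was 895 to 943 with Map3k3 and Dox, against 1140 to 1202 without Dox, and the trophectoderm sum 331 to 393 against 11.6 to 23.0. The latter mostly follows Krt18 (mean log2 signal 8.28 with Dox and 3.31 without). Of the 7 trophectoderm markers 6 were called higher, against 12.3% of all genes. The part of these genes and markers in the Ezh2, Eed and Mtf2 differences was not tested.

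Against wild type, 3 of the 10 genes were called in Map3k3 cells with Dox, with 38.3% of all genes called, 18.4% higher and 19.9% lower. Rnf2 was 1.73-fold higher, Ezh1 2.45-fold lower and Phf19 1.77-fold lower, the last not with the slide as a block (limma adjusted p = 0.313). Eed, Suz12 and Mtf2 were 1.24-fold, 1.39-fold and 1.32-fold higher and under the fold minimum, though the dimmer Mtf2 probe passed at 0.65. Jarid2 was 1.43-fold higher and passed without Map3k3 replicate 2 with Dox (0.63).

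**Figure D3:**
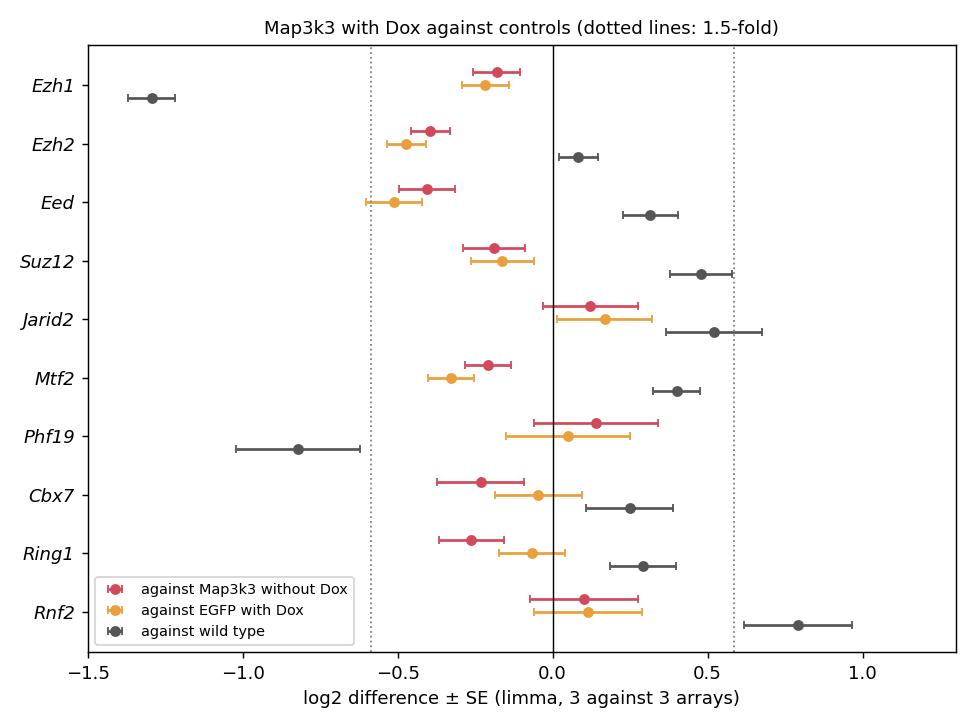
Log2 difference ± SE of each Polycomb gene in Map3k3 cells with Dox against 3 controls: the line without Dox, EGFP cells with Dox, and wild type; dotted lines mark 1.5-fold. Ezh2 lies at -0.39 and -0.47 against the null-background controls and at 0.08 against wild type, while Ezh1 lies at -1.29 against wild type.

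Other subunits were read from lists of genes. Of 8 other PRC2 genes, 4 rose and 2 fell in null cells, where 17.3% of all genes rose and 20.5% fell (median 0.52, all genes 0.07). Phf1, a relative of Mtf2 and Phf19, rose by 1.48 and Aebp2, a cofactor that stabilises PRC2, by 1.03. Epop rose by 0.81 and Lcor by 0.68. Ezhip, an inhibitor of PRC2, fell by 3.07 and Lcorl fell by 1.47. Ezhip was the 1 gene of this list called with Map3k3, at 2.02 ± 0.20 against uninduced (limma adjusted p = 1.12e-05) and 2.17 ± 0.20 against EGFP cells.

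Of 24 other PRC1 genes measured, 6 rose and 8 fell in null cells, against 17.3% and 20.5% of all genes (median 0.09). Pcgf1 and Kdm2b, which belong to a variant PRC1 that binds CpG islands, rose by 1.35 and 0.94. Bcor and Bcorl1, of the same variant, fell by 0.82 and 0.61. Bmi1 rose by 0.93 ± 0.37, close to the threshold (limma adjusted p = 0.0456). Scml2 fell by 2.02, Yaf2 by 1.70 and Scmh1 by 1.09. With Map3k3, 7 of the 24 rose and 1 fell against uninduced cells and 5 rose against EGFP cells, where 12.3% and 12.4% of all genes rose. Yaf2 (1.44 and 1.37), Phc2 (0.97 and 1.05), Pcgf5 (0.74 and 0.84) and Scmh1 (0.74 and 0.69) were among those called in both.

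Of 15 genes that counter Polycomb marks, 7 rose and none fell in null cells, against 17.3% and 20.5% of all genes (median 0.60). Wdr5, a shared subunit of the H3K4 methyltransferases, rose by 1.48, and Kdm6b, an H3K27 demethylase, by 1.12. Wdr5 was lower with Map3k3 in both comparisons (-0.71 and -0.67), and both were called.

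Of 22 lineage genes known as Polycomb targets in embryonic stem cells, 5 did not pass the filter on dim probes. Among the other 17, 2 rose and 9 fell in null cells, against 17.3% and 20.5% of all genes. Their median was -1.003, or -0.65 with 7 genes that were dim in null cells set at their bound. Sox17, dim in both groups, has no bound, and the median of -0.65 is its own difference, a value at background level. T and Pax6 passed the filter only through wild type and so had to differ; without them 2 rose and 7 fell. With Map3k3, 12 rose and none fell in either comparison, against 12.3% and 12.4% of all genes that rose (median 1.24 and 1.34, the same with dim genes at their bound), and Gata4, Eomes, Msx1 and Cdkn2a were among them. Sox17 passed only through the Map3k3 arrays with Dox, and without it 11 of 16 rose. Up to 8 of the 17 were dim on every array of a null group. Cdx2, for example, was at least 55.8-fold higher than in uninduced cells. For such bounds the signal of the dim group was raised to the lowest value well above background on each array. Several targets are also trophectoderm or primitive endoderm markers.

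**Figure D4:**
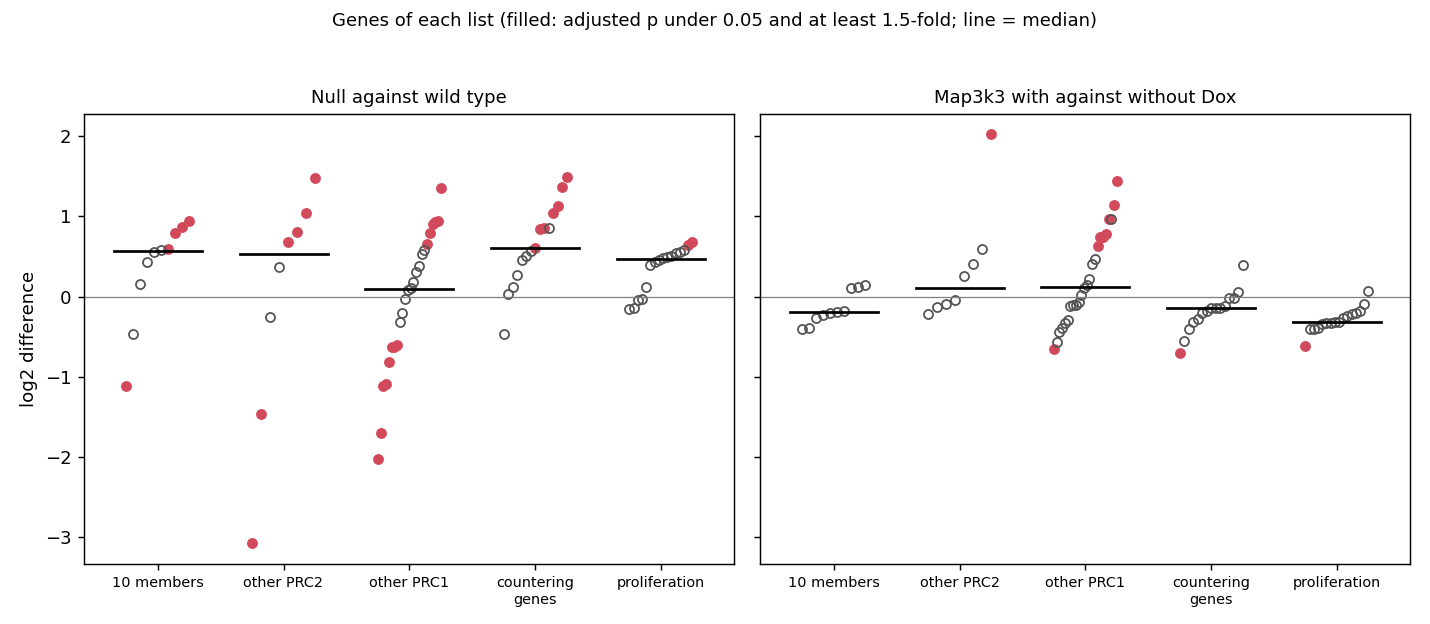
Log2 difference of every measured gene of the 10 Polycomb members and 4 lists (other PRC2, other PRC1, genes that counter the marks, and proliferation; the target genes are not drawn), in null against wild type (left) and in Map3k3 cells with against without Dox (right); filled points were called and lines are medians. Of the genes drawn, Ezhip is the lowest in the left panel (-3.07) and the highest in the right (2.02).

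Ezh1 had the widest range of group means of the 10 genes, 1.29. The genes with the most similar pattern over the 15 arrays were Rnu3b1, Trim13, Mmel1, Tnnc2 and Pdpn, with Pearson correlations of 0.990 down to 0.984. The points share groups of 3 arrays, so the correlations reflect differences between groups as well as among arrays.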

How the data were processed

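Per the file headers, the authors' scanner files came from Feature Extraction 11.5.1.1 with protocol GE1_1105_Oct12, and the deposited intensity is the processed green signal, already corrected for background by that software. The authors' deposited value table, log2 per its values, correlated with the values computed here at 1 on every array. Spots of a probe were averaged, log2 was taken and the array's 75th percentile over non-control probes subtracted. Symbols came from RefSeq accessions: 28331 of 55681 probes received one. A probe stayed if at least 1 group had it well above background on each of its 3 arrays, and the brightest stood for its gene. One limma 3.58.1 model (R 4.3.3) with 5 group means was fitted to 15 arrays (10 residual degrees of freedom, two-sided, Benjamini-Hochberg over 14443 genes), after tests on simulated data. The members and lists were chosen with earlier results of these data known. Named genes are the 10 members, list genes called in null against wild type or in both Map3k3 comparisons, and the 5 genes most like the member of widest range. Values of 1 list gene are not reported here. The number of arrays limits the precision.

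Groups share replicate numbers. Deviations of same-numbered arrays correlated at 0.107 to 0.631 in every pair among the 4 null-background groups, and at -0.0399 to 0.0643 against wild type. Among the null-background groups, replicates 1 and 3 also correlated with each other, at 0.0939 to 0.241. Replicate 2 against 1 or 3 gave -0.482 to -0.179. Map3k3 replicate 1 with Dox correlated more with EGFP replicate 3 (0.192) than with EGFP replicate 1 (0.107). The main fit has no block, so its p-values are unpaired, also among the null-background groups. Pairing enters only where a replicate block or differences within a number are named. The labels do not say what a number marks. Alternatives covered scaling, background correction, filters, probe choice, slide, row and replicate blocks, and leaving out each array. The normexp correction on the median signal, the percentile over spots and the block over null-background arrays were added after seeing the data.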

Additional observations from a re-analysis of the deposited data

How the results depend on the processing

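No result named for a member that had been called changed sign under any alternative, and the 1 reversed sign was that of Cbx7 between null and wild type with the row as a block (-0.10). Of 994 single-gene alternatives, 911 kept direction and side of the threshold, 32 lost and 50 gained a call. Members called were, without the fold minimum, 8 (null against wild type), 10 (uninduced against wild type), 3 (Map3k3 with against without Dox), 4 (Map3k3 against EGFP) and 8 (Map3k3 against wild type), and with a 2-fold minimum 1 in each of the 4 comparisons against wild type. Median scaling gave 5 in Map3k3 against wild type. It moved the median of all genes between null and wild type from 0.07 to 0.22, and the share of calls that were higher from 45.8% to 56.9% (null), 44.6% to 57.8% (uninduced) and 44.1% to 54.9% (EGFP). The causes were not tested.

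Genes called were, in the order null, uninduced, EGFP and Map3k3 with Dox against wild type, then Map3k3 against uninduced and EGFP cells, 9109, 9275, 9266, 8913, 5752 and 5987 without the fold minimum, and 3291, 3497, 3437, 3241, 1508 and 1493 at 2-fold. With probes above background on all 15 arrays, Map3k3 with against without Dox had 1718. EGFP against null gave 0 (median scaling), 2 (normexp), 0 (2-fold), 19 (slide block) and 0 (only the groups compared). Uninduced against null gave 3 (normexp), 10 (probes above background on all 15 arrays), 2 (row block), 12 (slide block) and 3 (limma trend).

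With the replicate block, member counts were the same in all 8 comparisons. Genes called rose to 40 in uninduced and 2 in EGFP against null, and to 60 and 14 with the block over null-background arrays alone.

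Leaving out 1 array at a time gave 4 to 6 members and 5272 to 5453 genes for null, 5 to 7 and 5520 to 5655 for uninduced, 5 to 7 and 5482 to 5672 for EGFP and 3 to 4 and 5312 to 5493 for Map3k3 with Dox, each against wild type. Map3k3 with Dox gave 0 to 0 members and 2393 to 2633 genes against uninduced cells and 0 to 1 and 2441 to 2623 against EGFP cells. Against null, uninduced cells gave 0 to 2 genes and EGFP cells 0 to 8, with 0 members in each.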

Other observations

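Among the null-background groups, replicate 2 was the lowest of the 3 arrays in all 4 groups for Suz12 (4.43, 4.52, 4.36 and 4.45), Jarid2 (5.17, 4.92, 5.10 and 4.88) and Phf19 (-0.53, -0.94, -0.76 and -0.92), in the order null, uninduced, Map3k3 with Dox and EGFP. For Rnf2 it was the lowest in 3 of them (3.33, 3.22 and 3.14) but not with Map3k3 and Dox (3.59). In wild type, replicate 2 was the highest for Suz12 (4.04), Jarid2 (4.89) and Rnf2 (2.92). These patterns were noticed after the values were seen and were not tested.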
